A study of Mus musculus with 30 samples.

Results

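miR-148a and miR-152 are 2 closely related mouse miRNAs, described here across all 8 groups of a study of fat, aorta, cultured adipocytes and adipocyte exosomes. They were taken by name, as the 2 rows for mmu-miR-148a and mmu-miR-152 among 566 mouse miRNA probes, and each has 1 probe. All samples were labelled as from male C57BL6 mice, an inbred laboratory strain. Abdominal aorta came from mice on a high-fat diet with 60% fat (AA-HFD, n = 3) or on normal chow (AA-NCD, n = 3), and mesenteric fat, the fat around the intestine, from the same diets (MAT-HFD and MAT-NCD, n = 5 each). The diets ran from week 4 to week 20 of age. Pre-adipocytes from the stromal vascular cells of mesenteric fat of chow-fed mice were differentiated to adipocytes and given lipopolysaccharide (LPS), a component of the bacterial cell wall sensed by Toll-like receptors, at 1 µg/ml (MAT-Ad-LPS, n = 4) or PBS (MAT-Ad-PBS, n = 4) for 24 h. Exosomes, small vesicles that cells release, were isolated from the culture medium of such cells (MAT-Ad-EX-LPS and MAT-Ad-EX-PBS, n = 3 each). Nothing in the labels says which samples came from separate animals or cultures. All p-values therefore rest on the scatter among samples that may be technical repeats.

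A miRNA is a short RNA that guides the Argonaute protein to messenger RNAs, mostly by pairing of its seed, the bases near its 5′ end, and so lowers the output of those messages. miR-148a and miR-152 belong to the miR-148/152 family, whose known targets include the DNA methyltransferase DNMT1 and, in dendritic cells given Toll-like receptor ligands such as LPS, the kinase CaMKIIα. miR-148a is known to rise during fat cell differentiation, to favour it by repressing Wnt signalling, and to repress the LDL receptor in liver.

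The mature sequences are shown because the members share their seed and differ at few other bases, which bears on how well separate probes can tell them apart. All 3 names of the family matched a RefSeq entry (build GRCm38.p6). The seed, bases 2 to 8 from the 5′ end, is in capitals.
miR-148a-3p: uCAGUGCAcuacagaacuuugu
miR-152-3p: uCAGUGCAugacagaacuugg
miR-148b-3p: uCAGUGCAucacagaacuuugu
miR-148a-3p lies at chr6:51269829-51269850 on the minus strand, miR-152-3p at chr11:96850439-96850459 on the plus strand and miR-148b-3p at chr15:103285185-103285206 on the plus strand. Counted from 1 at the 5′ end, miR-148a and miR-152 differ at 3 of 21 shared positions, C9U, U10G and U20G, and miR-148a has 1 more base. miR-148a and miR-148b differ at 2 of 22, C9U and U10C, and miR-152 and miR-148b at 2 of 21, G10C and G20U. The 7-base seed CAGUGCA stands at bases 2 to 8 of 3 of the 1679 mature mouse miRNAs in the RefSeq table (0.179%), and those 3 are these.

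The hairpins of both members are shown to mark which arm the mature form comes from, here in capitals on the 3′ side of each.
Mir148a: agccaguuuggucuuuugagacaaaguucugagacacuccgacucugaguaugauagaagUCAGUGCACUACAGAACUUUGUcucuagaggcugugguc
Mir152: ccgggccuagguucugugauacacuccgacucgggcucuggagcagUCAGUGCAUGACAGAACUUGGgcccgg
The Mir148a hairpin (chr6:51269812-51269910, minus strand) lies within the annotated span of Gm38821. The Mir152 hairpin (chr11:96850393-96850465, plus strand) lies within Copz2, and that of miR-148b within Copz1. Copz1 and Copz2 encode zeta subunits of the COPI coat, which forms vesicles that return cargo from the Golgi to the endoplasmic reticulum. The table's names carry no arm. They are read here as the 3′ arm, the form older unmarked names stand for. Probe sequences were not used here, so the share of signal that one family member gives on another's probe was not tested.

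Values are background-subtracted probe signals, multiplied by the authors with 1 factor per sample. Their floor is 1, or the factor where that is over 1. The detection limit, the mean plus 2 SD of 240 negative control values, was 29.8. Total miRNA signal was 221448 to 282170 in HFD aortas and 174770 to 287152 in chow aortas. It was 311130 to 496704 in HFD fat and 270569 to 351783 in chow fat. LPS exosomes gave 5753 to 33349 and PBS exosomes 1796 to 2861, against 79830.0 to 142968 in LPS cells and 70149 to 102148 in PBS cells. A ligation control, an artificial RNA that reports the tagging step, was low in PBS exosome replicate 1, at 126, while all other exosome samples had 2832 to 23141. It was high in chow aorta replicate 1, at 50714, while the other 2 chow aortas had 4295 and 5946. miRNAs known from endothelium, red blood cells and striated muscle lay below the limit in all 8 cultured cell samples. Of 5 leukocyte miRNAs miR-142-3p, miR-150 and miR-155 were below it in all 8 as well, miR-223 was below it in all 4 PBS cell samples, and miR-142-5p was over it in all 8. Of 5 epithelial miRNAs miR-200b was over the limit in all 30 samples and the other 4 (miR-200a, miR-200c, miR-141 and miR-429) in none.

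miR-148a and miR-152 were over the detection limit in all samples of 7 groups and in none of the 3 PBS exosome samples. Both were brightest in fat. miR-148a had group means of 4775 ± 1473 in HFD fat (SD, n = 5) and 3913 ± 323 in chow fat (SD, n = 5). The ranges of these groups overlapped each other and no other group's. LPS cells, HFD aorta, chow aorta and PBS cells followed with overlapping ranges between neighbours, at 1514 ± 433, 1336 ± 318, 1112 ± 126 and 1054 ± 187. LPS exosomes, at 464 ± 312, lay below all of these and above PBS exosomes, at 9.67 ± 9.28 (SD, n = 3 each). miR-148a was the 5th to 13th brightest miRNA in LPS exosomes, the 14th to 20th in cultured cells, the 15th to 26th in fat and the 24th to 30th in aorta.

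miR-152 averaged 1449 ± 436 in HFD fat, 949 ± 215 in chow fat, 885 ± 249 in HFD aorta, 658 ± 185 in chow aorta, 463 ± 127 in LPS cells and 350 ± 43.0 in PBS cells (SD). Each of these groups overlapped its neighbour in the order. LPS exosomes, at 118 ± 72.9, and PBS exosomes, at 6.96 ± 5.14 (SD, n = 3 each), stood apart from the rest and from each other. miR-148b, the other miRNA with the seed, was over the limit in all 10 fat samples. It was over it in 3 of 4 LPS cell samples and none of 4 PBS cell samples. In exosomes it was over it in 2 of 3 LPS samples and none of 3 PBS ones, and in aorta in 1 of 3 on each diet. The chow aorta over it was replicate 1, whose per-sample factor was 2.40. With the factor undone it had 16.1, against 26.7 and 25.9 in chow replicates 2 and 3. The HFD aorta over it, replicate 2, had 97.5 with the factor undone.

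**Figure D1:**
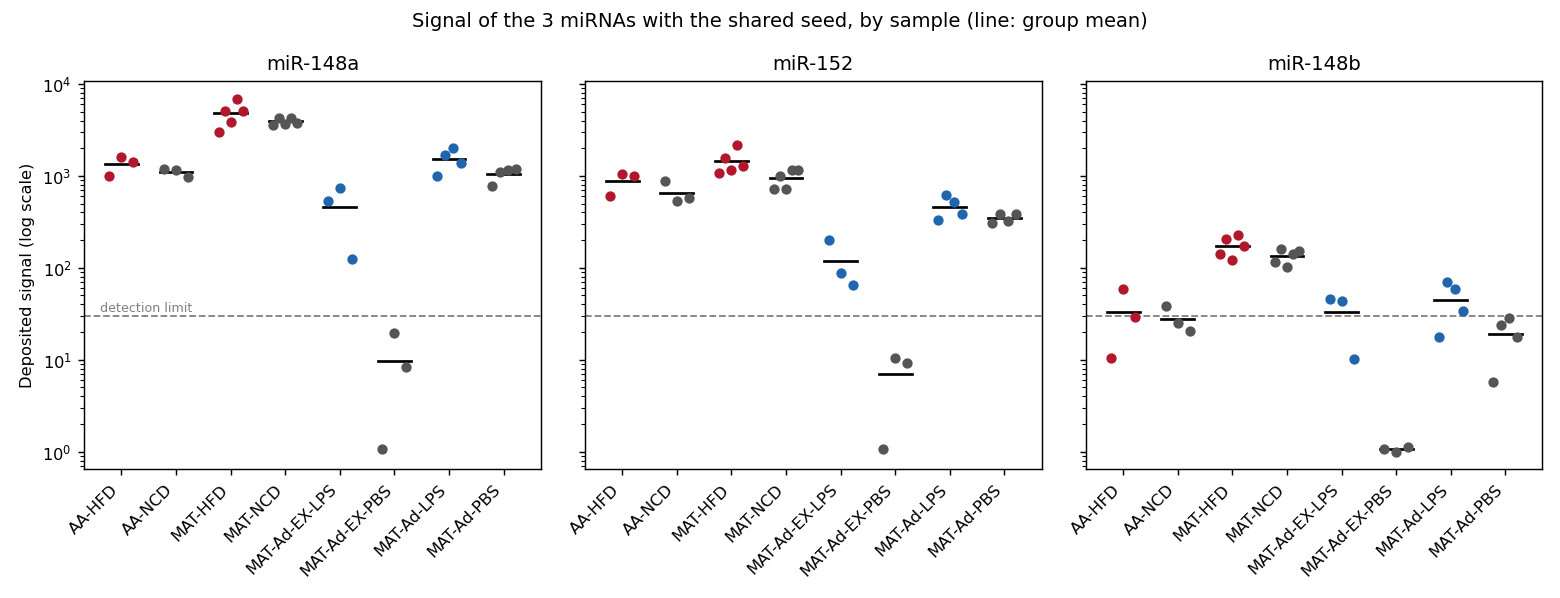
Deposited signal (log axis) of miR-148a, miR-152 and miR-148b in each of 30 samples, by group, with a line at the group mean and a dashed line at the detection limit of 29.8. Both members were below the limit in all 3 PBS exosome samples and lay above it in every other sample, while miR-148b was over it in every fat sample and, in each other group, in some samples or none.

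The first comparison asked what LPS does to exosome miRNAs. Both members were over the detection limit in every LPS exosome sample and in no PBS exosome sample. miR-148a read 533, 736 and 124 in LPS exosome replicates 1 to 3, against 1.08, 19.5 and 8.42 in PBS exosomes. The groups did not overlap. Set against the detection limit in place of the PBS values, miR-148a was at least 11.9-fold higher. The fitted log2 difference, 5.63 (adjusted p = 0.027), rests on PBS values below the limit and was no longer past the test when no filter on low values was used (adjusted p = 0.38).

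miR-152 read 201, 87.7 and 64.7 in LPS exosomes, against 1.08, 10.6 and 9.23 in PBS exosomes. The groups did not overlap, and miR-152 was at least 3.43-fold higher. The fitted log2 difference was 4.07 (adjusted p = 0.029, and 0.38 with no filter). miR-148b, with 45.8, 43.6 and 10.2 in LPS exosomes and 1.08, 1 and 1.12 in PBS exosomes, was too often below the limit to be tested.

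Of 26 miRNAs tested in exosomes 8 passed, which is 30.8%, all higher with LPS. With no filter 0 passed. The median log2 difference of the 26 was 3.33, or 1.90 with the 10 that were below the limit in all samples of a group taken at their bound. Both members entered the test through their LPS samples alone, so the filter itself favours a difference. Neither their calls nor their lack of overlap is support for a difference. The calls ended when any 1 sample other than LPS exosome replicate 3 was left out (adjusted p = 0.075 to 0.12), PBS replicate 1 with its low ligation control included (log2 difference 4.72 for miR-148a and 3.28 for miR-152). They also ended when each sample was scaled to its total miRNA signal, with log2 differences of 3.36 (adjusted p = 0.1) for miR-148a and 1.83 (adjusted p = 0.26) for miR-152.

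As a share of all miRNA signal, miR-148a made up 2.16% to 3.78% in LPS exosomes, against 0.0601% to 0.682% in PBS exosomes, with no overlap. miR-152 made up 0.263% to 1.42% in LPS exosomes, against 0.0601% to 0.369% in PBS exosomes, and these ranges overlapped. The PBS exosome signals of both members were below the limit in every sample. Their PBS shares are therefore not read as levels. Among the other miRNAs of adipocyte differentiation, 1 of 2 tested from the list of those raised in or favouring it passed, miR-21 (at least 16.5-fold higher, adjusted p = 0.027). The 1 tested from the list of those opposing it, miR-130a, also passed (at least 5.08-fold higher, adjusted p = 0.027). They too were below the limit in every PBS exosome sample. More vesicles and more miRNA per vesicle cannot be told apart here.

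**Figure D2:**
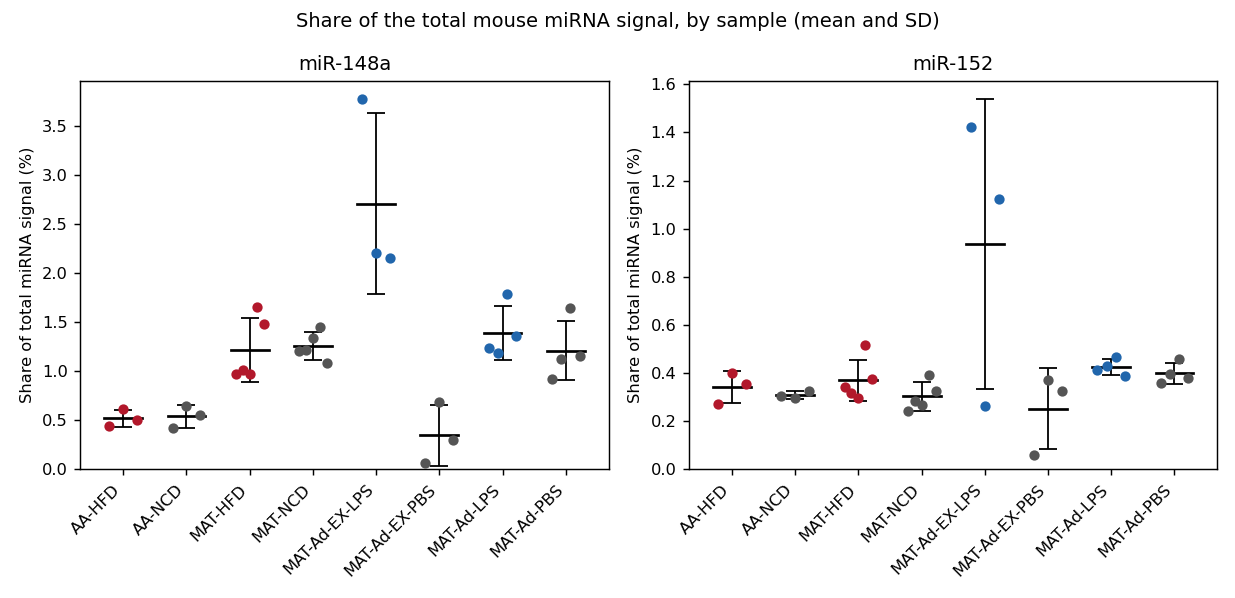
Share of the total mouse miRNA signal (%) taken by miR-148a and by miR-152 in each sample, with group mean and SD. The 3 LPS exosome samples held the highest miR-148a shares of all 30, 2.16% to 3.78%, while for miR-152 one of the 3 lay as low as 0.263%. The PBS exosome shares come from signals below the detection limit.

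In cultured adipocytes, LPS moved neither member past the test. miR-148a read 992, 1695, 2001 and 1366 in LPS cells, against 778, 1100.4, 1152 and 1184 in PBS cells. The groups overlapped, with LPS replicate 1 below 3 of the 4 PBS values. The log2 difference was 0.49 (95% CI -0.15 to 1.13, adjusted p = 0.54).

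miR-152 read 331, 613, 520.1 and 389.6 in LPS cells, against 304, 387, 322 and 386 in PBS cells. These ranges overlapped too. The log2 difference was 0.37 (95% CI -0.22 to 0.96, adjusted p = 0.57). Same-numbered samples deviated together in these cells, and within the 4 pairs both members were higher with LPS each time, by 1.15 to 1.74 times for miR-148a and 1.01 to 1.61 times for miR-152. How many other miRNAs rose in every pair was not counted. Total miRNA signal was higher with LPS in replicates 2 (142968 against 97746) and 3 (111644 against 70149). It was lower with LPS in replicates 1 (79830 against 84312) and 4 (100438 against 102148). The part of the total in these folds was not tested. With the replicate number as a block the adjusted p was 0.27 for miR-148a and 0.43 for miR-152.

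By limma 2 of 98 miRNAs passed in cells (2.04%), and 8 with the replicate block. The median log2 difference was 0.29, and 85.7% of the 98 were higher with LPS. Both that passed, miR-221 (at least 3.02-fold higher, adjusted p = 0.0034) and miR-146a (log2 difference 2.94, adjusted p = 0.001), a brake on Toll-like receptor signalling, belong to the list of 12 LPS-responsive miRNAs, of which 5 were tested. miR-221 was below the limit in every PBS cell sample, so its p is not read as support. It is also the 1 of 4 tested miRNAs opposing adipocyte differentiation that passed. None of the 10 tested miRNAs raised in or favouring adipocyte differentiation passed. miR-148b had 17.6, 69.7, 58.2 and 33.8 in LPS cells and 5.73, 23.9, 28.2 and 17.6 in PBS cells, which gives 1.92 to 3.07 times within the pairs. It was not tested there, as most of its values lay at or below the limit.

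The difference between the LPS effect in exosomes and that in cells was tested directly. It was 5.14 on the log2 scale for miR-148a (SE 1.04, adjusted p = 0.012) and 3.70 for miR-152 (SE 0.831, adjusted p = 0.012), larger in exosomes. The fit shares 1 spread over exosomes and cells. Fitted alone, the LPS effect in exosomes had a larger SE, 1.14 for miR-148a and 0.895 for miR-152. In cells the SE was 0.287 and 0.265. The SE of the difference is therefore too small, and its adjusted p too favourable. Of 114 miRNAs 17 passed this test (14.9%), 16 of them with the larger effect in exosomes (14%), and miR-148b did not (2.57, adjusted p = 0.08). With values under the limit set to the limit the difference was 3.08 for miR-148a (adjusted p = 0.024) and 1.40 for miR-152 (adjusted p = 0.15). On the scale of total miRNA signal it was 3.26 for miR-148a (adjusted p = 0.027) and 1.83 for miR-152 (adjusted p = 0.17). Those figures rest on PBS exosome signals below the limit.

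Exosomes were also set against the cells of the same treatment. Exosome RNA was extracted with another kit than cell RNA, so kit and vesicle cannot be told apart. With PBS, miR-148a was at least 33.8-fold lower in exosomes than in cells (log2 difference -7.14, adjusted p = 9.9e-07) and miR-152 at least 11.3-fold lower (-5.80, adjusted p = 8.4e-07). Of 114 miRNAs 90 passed (78.9%), and 3.51% of the 114, passed or not, were higher in exosomes. The median log2 difference was -4.71, or -1.34 with those below the limit in all samples of a group at their bound. Per total miRNA signal the difference was -2.33 for miR-148a (adjusted p = 0.0061) and -1.01 for miR-152 (adjusted p = 0.2). These figures rest on PBS exosome signals below the limit, and no bound was taken on that scale. Neither their size nor the miR-148a call is therefore read. With LPS, the values given above were lower in exosomes than in cells without overlap, by a log2 difference of -2.0 for miR-148a (4.00-fold, adjusted p = 0.026) and of -2.10 for miR-152 (4.27-fold, adjusted p = 0.0059). There 83 of 114 passed (72.8%), 80 of them lower in exosomes (70.2%), with a median log2 difference of -3.44, or -1.53 with bounds. The miR-148a call was lost without LPS cell replicate 2 (-1.93, adjusted p = 0.058) or 3 (-1.85, adjusted p = 0.062) or LPS exosome replicate 3 (-1.22, adjusted p = 0.15).

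The sign of the LPS comparison turned with the scale. Per total miRNA signal both members were higher in LPS exosomes than in LPS cells, by 0.93 for miR-148a (adjusted p = 0.23) and 0.82 for miR-152 (adjusted p = 0.29) on the log2 scale. Scaled to the 100 brightest miRNAs, miR-148a passed the test in that direction at 1.55 (adjusted p = 0.044), and miR-152 was at 1.44 (adjusted p = 0.069). The share of miR-148a was 2.16% to 3.78% in LPS exosomes, against 1.19% to 1.79% in LPS cells, without overlap. The share of miR-152 was 0.263% to 1.42% in LPS exosomes, against 0.388% to 0.466% in LPS cells, with overlap.

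**Figure D3:**
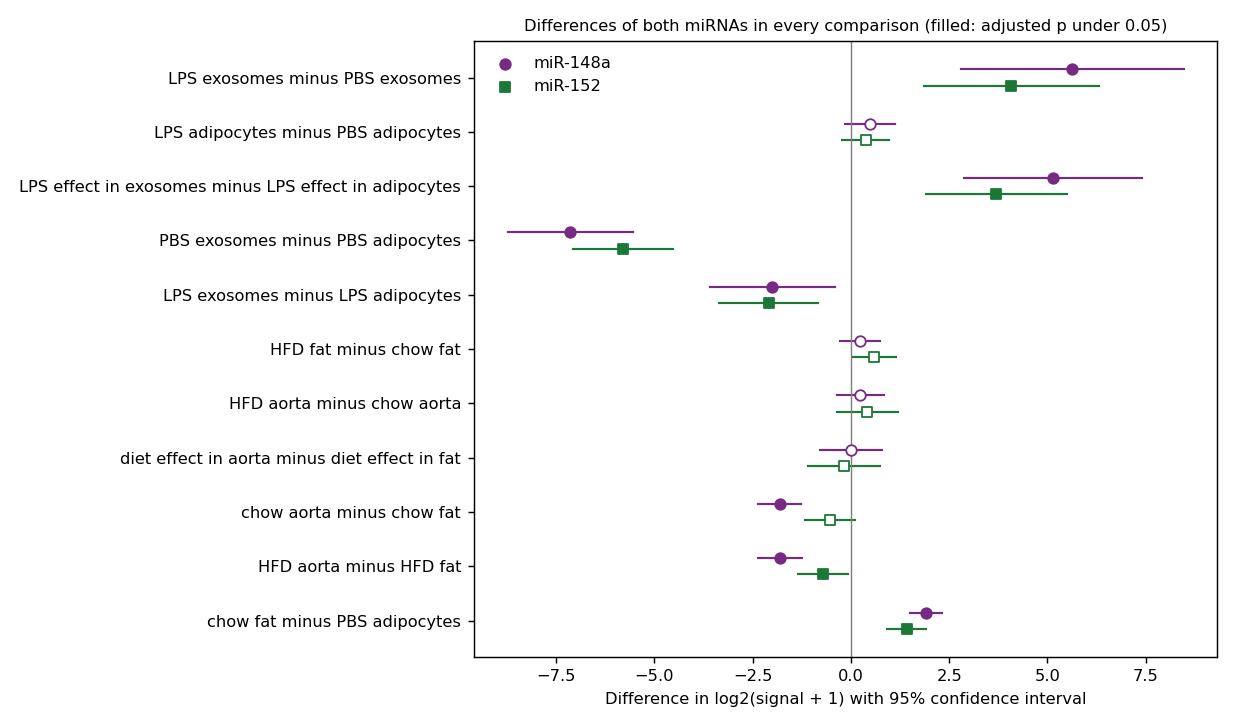
Difference in log2(signal + 1) with its 95% confidence interval for miR-148a (circles) and miR-152 (squares) in 11 comparisons, filled where the adjusted p was under 0.05. The intervals of the LPS effect in exosomes and of its excess over cells lie wholly above 0 and rest on PBS exosome values below the detection limit, while the LPS intervals in cells include 0.

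The next comparison asked what the high-fat diet does in mesenteric fat. Neither member passed the test. miR-148a read 3022, 5030, 3834, 6913 and 5077 in HFD fat, against 3615, 4277, 3635, 4238 and 3799.9 in chow fat. The HFD samples spread from below to above all 5 chow samples. The log2 difference was 0.24 (95% CI -0.27 to 0.74, adjusted p = 0.51).

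miR-152 read 1064, 1578, 1167, 2149.7 and 1287 in HFD fat, against 723, 1005, 721, 1148 and 1149 in chow fat. Of the 5 HFD samples 4 lay above every chow sample, and the ranges overlapped. The log2 difference was 0.59 (95% CI 0.05 to 1.14), with an unadjusted p of 0.036 from limma and an adjusted p of 0.14. Undoing the authors' factor per sample, an alternative chosen after seeing the data, gave 0.84 (adjusted p = 0.015).

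In fat 24 of 157 miRNAs passed (15.3%), and the median log2 difference was 0.31. miR-148b averaged 174 ± 42.5 in HFD fat and 134 ± 24.8 in chow fat (SD, n = 5 each; log2 difference 0.35, adjusted p = 0.31). Of the LPS-responsive list 6 of 8 tested rose, among them miR-221 (log2 difference 3.67, adjusted p = 2.5e-05) and miR-222 (at least 2.09-fold higher, adjusted p = 2.5e-06), with a list median of 0.96. miR-222 was below the limit in every chow fat sample, so its p is not read as support. Of the differentiation lists 1 of 15 tested favouring miRNAs rose, miR-21 (1.04, adjusted p = 0.028), and 3 of 7 tested opposing ones did, miR-222, miR-221 and miR-27a (0.85, adjusted p = 0.022). miR-21, miR-221 and miR-222 are also on the LPS-responsive list and were counted there too. The endothelial miRNAs summed to 22851 to 34485 in HFD fat and 16007 to 22613 in chow fat, and the leukocyte miRNAs to 5804 to 26550 in HFD fat and 4551 to 25462 in chow fat. Their part in the fat values of the members was not tested.

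In the aorta no effect of diet on either member passed. miR-148a read 988, 1611 and 1409 in HFD aortas, against 1199, 1170.0 and 968 in chow aortas. The groups overlapped, and the log2 difference was 0.24 (95% CI -0.36 to 0.84, adjusted p = 0.74). miR-152 read 599, 1056 and 1001 in HFD aortas, against 871, 535 and 569 in chow aortas, with overlap and a log2 difference of 0.42 (95% CI -0.36 to 1.19, adjusted p = 0.57).

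The highest chow value of miR-152 was that of replicate 1, the sample with the high ligation control. That sample also had the largest per-sample factor, 2.40, against 0.934 and 0.789 in chow replicates 2 and 3. With the factor undone its miR-152 value was 363, against 573 and 721 in those. Without replicate 1 the log2 difference was 0.64 for miR-152 (adjusted p = 0.3) and 0.30 for miR-148a (adjusted p = 0.48). By limma 0 of 99 miRNAs passed in the aorta (0%), and 11 had an unadjusted p under 0.05. The diet effect in aorta less that in fat was 0.01 on the log2 scale for miR-148a (95% CI -0.78 to 0.79, adjusted p = 1) and -0.17 for miR-152 (95% CI -1.08 to 0.73, adjusted p = 0.97). Of 175 miRNAs 3 passed this test (1.71%).

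miR-148a was lower in aorta than in fat on both diets, and miR-152 passed the test on HFD and missed it on chow. The test of the diet effect in aorta less that in fat, given above, did not pass for miR-152, and whether the members differ in this was not tested. On chow, the aorta values of miR-148a given above all lay below the fat values, and the log2 difference was -1.82 (SE 0.261, adjusted p = 1.9e-05), 3.52-fold lower in aorta. On HFD it was -1.81 (SE 0.261, adjusted p = 1.7e-05), 3.51-fold lower. For miR-152 the chow samples overlapped (log2 difference -0.53, 95% CI -1.17 to 0.11, adjusted p = 0.12). The HFD samples did not (-0.71, 95% CI -1.35 to -0.06, adjusted p = 0.043).

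Same-numbered HFD aortas and HFD fat samples deviated together (r from 0.21 to 0.33 in 3 pairs), and with the replicate number as a block the miR-152 difference was -0.52 (adjusted p = 0.14). That block also joined the chow samples of the same number, whose aorta and fat deviations did not go together (r from -0.15 to 0.01). It is therefore no paired estimate for HFD alone. The miR-152 call was also lost without HFD fat replicate 2, 4 or 5 or HFD aorta replicate 1 or 3, with log2 differences of -0.82 to -0.45 and adjusted p = 0.052 to 0.23. miR-148b was lower in aorta, with a log2 difference of -2.25 on chow (adjusted p = 0.00019) and -2.64 on HFD (adjusted p = 3.8e-05). Most miRNAs were lower in aorta. On chow 128 of 175 tested passed (73.1%), 125 of them lower (71.4%), with a median log2 difference of -2.10, or -0.98 with bounds. On HFD 138 passed (78.9%), 133 of them lower (76%), with a median of -2.02, or -1.30 with bounds. Of the 16 tested miRNAs favouring adipocyte differentiation 11 were lower and none higher in chow aorta than in chow fat, among them miR-21 (log2 difference -3.46, adjusted p = 7.9e-07), miR-103 (-2.99, adjusted p = 1.3e-06) and miR-92a (at least 1.05-fold lower, adjusted p = 0.0012). That is close to the 71.4% of all tested miRNAs, and the list median was -1.76, or -1.58 with bounds. Of 8 tested opposing miRNAs 3 were lower and 1 higher, with a median of -0.05, or 0.09 with bounds. miR-92a was below the limit in every chow aorta sample, so its p is not read as support.

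On other scales the tissues compared differently. Centred on each sample's median, miR-148a differed by 0.01 on chow (adjusted p = 0.97) and 0.21 on HFD (adjusted p = 0.35), while miR-152 was higher in aorta by 1.30 on chow (adjusted p = 8.1e-05) and 1.32 on HFD (adjusted p = 5.7e-05). Per total miRNA signal miR-148a was lower in aorta, with -1.24 on chow (adjusted p = 0.0003) and -1.20 on HFD (adjusted p = 0.00035), while miR-152 differed by 0.04 on chow (adjusted p = 0.87) and by -0.10 on HFD (adjusted p = 0.68). Smooth muscle markers (miR-143, miR-145) summed to 57994 to 109704 in chow aorta and 24939 to 83721 in chow fat, and the leukocyte miRNAs to 466 to 1330 in chow aorta and 4551 to 25462 in chow fat. The endothelial miRNAs summed to 2561 to 3310 in chow aorta and 16007 to 22613 in chow fat. The part of these cells was not tested, and in bulk tissue fewer cells of a type and less RNA per cell cannot be told apart.

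Chow fat was last set against the PBS adipocytes grown from it. miR-148a was higher in fat by 1.91 on the log2 scale (95% CI 1.49 to 2.32, adjusted p = 4.1e-06, 3.75-fold), and miR-152 by 1.42 (95% CI 0.93 to 1.90, adjusted p = 0.00013, 2.67-fold), both without overlap. miR-148b was at least 4.33-fold higher (adjusted p = 5.3e-05). Of 151 miRNAs 122 passed (80.8%), 116 of them higher in fat (76.8%), with a median log2 difference of 2.77, or 1.73 with bounds. Of 15 tested miRNAs favouring differentiation 14 were higher in fat, among them miR-26b (log2 difference 5.12, adjusted p = 2.5e-08), miR-378 (5.11, adjusted p = 1.4e-08) and miR-26a (at least 4.66-fold higher, adjusted p = 2.6e-09). Of 4 tested opposing miRNAs 4 were higher in fat too. The medians of the favouring and opposing lists were 4.25 and 2.69, or 3.28 and 2.03 with bounds. miR-26a and miR-148b were below the limit in every PBS cell sample, so their p is not read as support.

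Scaled to the total miRNA signal the differences were 0.08 for miR-148a (adjusted p = 0.7) and -0.41 for miR-152 (adjusted p = 0.054). Scaled to the 100 brightest miRNAs, both members were lower in fat, at -1.42 for miR-148a and -1.91 for miR-152 (adjusted p = 7.9e-06 each). The share of miR-148a was 1.08% to 1.45% in chow fat and 0.923% to 1.64% in PBS cells, and that of miR-152 was 0.242% to 0.394% in chow fat and 0.360% to 0.459% in PBS cells. Both pairs of ranges overlapped. The red cell miRNAs summed to 2864 to 8144 in chow fat and 3 to 3.78 in PBS cells, and the endothelial ones to 16007 to 22613 in chow fat and 2.08 to 3.50 in PBS cells. Their part in the total signal was not tested.

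**Figure D4:**
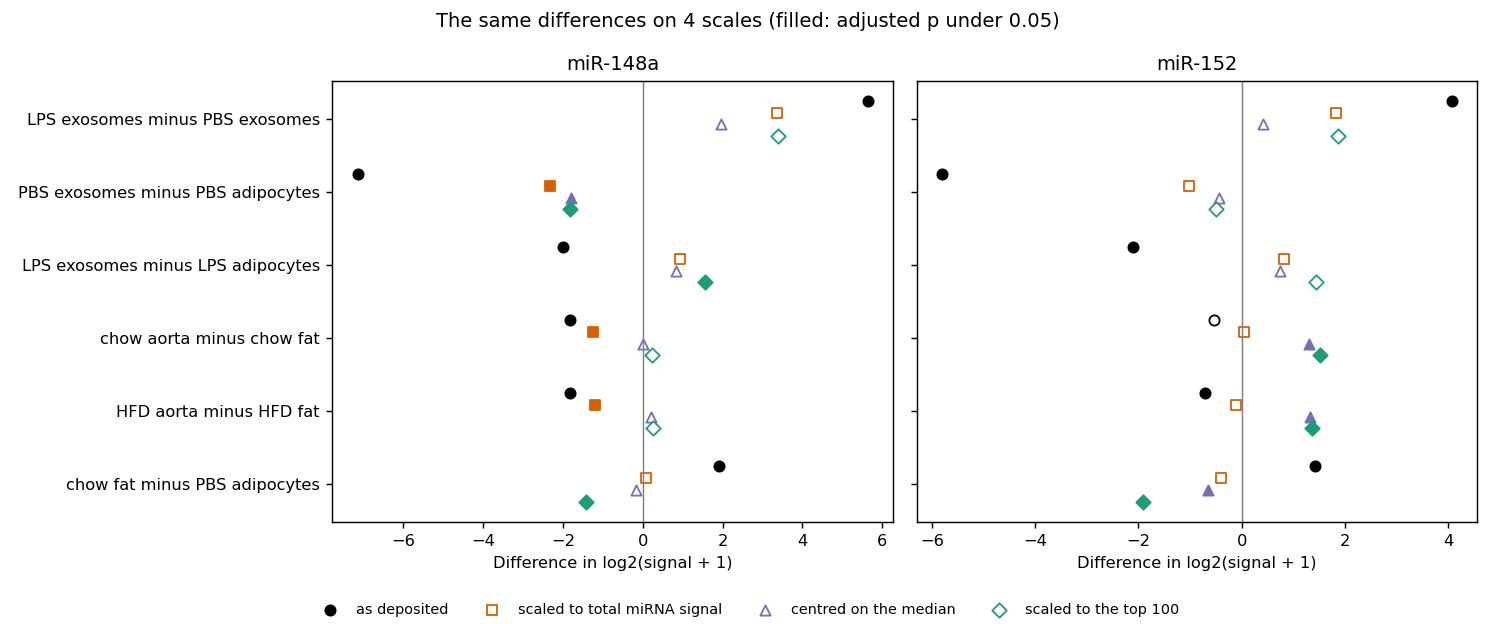
The log2 difference of miR-148a and miR-152 in 6 comparisons, from the deposited values and after scaling each sample to its total miRNA signal, to its median or to its 100 brightest miRNAs, filled where the adjusted p was under 0.05. The LPS effect in exosomes keeps its sign on all 4 scales, while LPS exosomes against LPS cells turns from below 0 to above 0 for both members.

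The ratio of miR-148a signal to miR-152 signal within a sample compares their courses without any per-sample scaling. It is a ratio of signals from different probes, not of molecules. It ran from 1.41 to 1.65 in HFD aortas and 1.38 to 2.19 in chow aortas, and from 2.84 to 3.94 in HFD fat and 3.31 to 5.04 in chow fat. The aorta and fat ranges did not overlap, which was noticed after the values were seen and is given without a test. In culture it was 2.77 to 3.85 in LPS cells and 2.56 to 3.58 in PBS cells. In LPS exosomes it was 2.65, 8.40 and 1.92, so replicate 2 stood above the others, while in PBS exosomes both signals were below the limit.

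Whether the pair moved by unequal amounts was tested in 4 comparisons with two-sided exact permutation tests. In exosomes the result is not read, since both PBS signals of each ratio were below the limit. With LPS the difference in log2 ratio was 0.12 in cells (exact p = 0.457, adjusted p = 0.5). With HFD the difference in log2 ratio was -0.36 in fat (exact p = 0.0476, adjusted p = 0.19) and -0.18 in aorta (exact p = 0.5, adjusted p = 0.5). With 3 samples per group the smallest exact p possible was 0.1, so the aorta and exosome tests could not pass at 0.05. The cell and fat tests did not pass after adjustment over all 4.

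**Figure D5:**
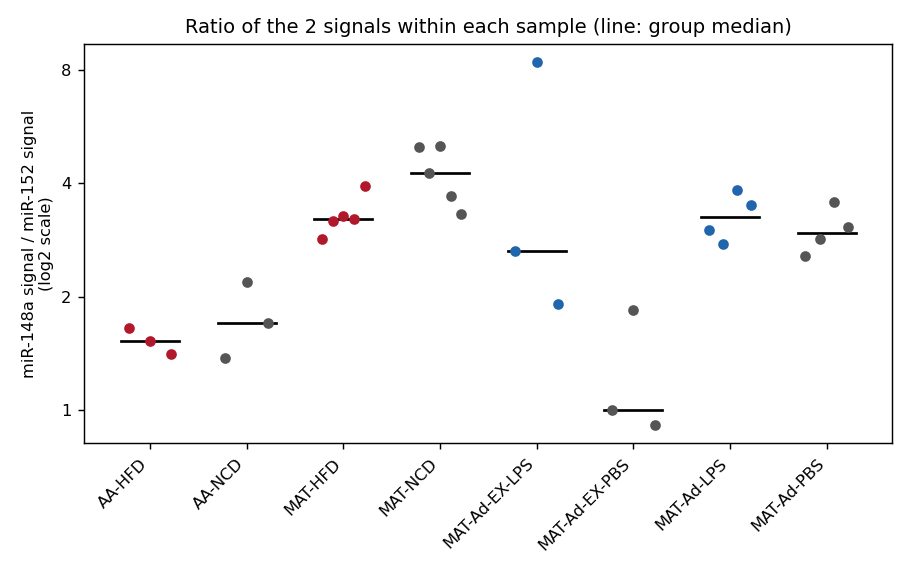
Ratio of miR-148a signal to miR-152 signal in each sample (log2 axis), by group, with a line at the group median. The 6 aortas lie at 1.38 to 2.19, below all 10 fat samples at 2.84 to 5.04, and in the PBS exosome samples both signals were below the detection limit, so their ratios are not read.

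Over all 30 samples, the log2 signal of miR-148a was most like that of miR-130a (Pearson r = 0.991), then miR-152 (0.972), miR-25 (0.971), miR-16 (0.966) and miR-22 (0.954), among 105 other miRNAs over the limit in at least 15 samples. miR-152 was most like miR-148a (0.972), miR-16 (0.968), miR-130a (0.967), let-7b (0.963) and let-7g (0.956). miR-148b came 28th for miR-148a (0.897) and 53rd for miR-152 (0.850). These values follow the total signal that the samples share, which is lowest in exosomes.

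With each sample's mean taken off, miR-148a was most like miR-130a (r = 0.920), miR-21 (0.823), miR-25 (0.757), miR-152 (0.709) and miR-22 (0.665). miR-152 was most like miR-148a (0.709), miR-22 (0.696), miR-130a (0.693), miR-210 (0.598) and miR-1196 (0.569). Without the 6 exosome samples, a choice made after seeing the data, the pair correlated at 0.390 over 24 samples on that scale. miR-152 was then 49th for miR-148a, which was most like miR-29a (0.887), and miR-148a was 34th for miR-152, which was most like miR-199a-3p (0.905). Deviations from the group means, with no centring, correlated at 0.796 between the members over the same 24 samples.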

How the data were processed

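The authors deposited 1 table of probe signals for 30 samples. Per the labels' protocols, RNA was labelled with a fluorescent barcode and biotin, and exosome RNA was extracted with another kit than tissue and cell RNA. Which software, background rule and scaling made them is not given in the sources used here. Low values show that the authors' signal was multiplied by 1 factor per sample (0.603 to 2.40). The lowest values are 1, or the factor where that is over 1. With the factor divided out, 100% of the low values stood whole steps apart in every sample, within 0.1. The deposited values are scaled, so they are not counts themselves, and the depth is limited by signal over background.

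Samples were grouped by title. The letter in the labels' description field also differs between fat, aorta, cells and exosomes, so it cannot be told apart from the kind of sample. The lmFit and eBayes functions of limma 3.58.1 (R 4.3.3) were run on log2(signal + 1), which understates changes of low miRNAs. P-values were adjusted by Benjamini-Hochberg over every miRNA of a fit, and 0.05 was the threshold. A miRNA was tested when over the detection limit of 29.8 in at least as many fitted samples as the smaller group holds. Comparisons across tissues, of exosomes with cells, and of effects were fitted on 4 groups, others on 2. A fit on 4 groups shares 1 spread, which understates the scatter of a group noisier than the rest. How many tested miRNAs had groups without overlap was not counted. A lack of overlap is therefore not read as particular to the members. Where no sample of the dimmer group was over the limit, a fold is a lower bound, taken against that group's values set to at least 29.8. Medians with bounds use these, or 0 where the bound had the other sign. A miRNA with such a bound entered its test through other groups alone, so its p is not read as support for a difference. Simulated data were used to test the fits.

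The members, the lists (raised in or favouring, and opposing, adipocyte differentiation; LPS-responsive; 6 of cell types) and the tests were chosen with earlier results of these data known. Named are both members, miR-148b, up to 3 list members that passed per comparison, and the 5 miRNAs most like each member. Of 17 differentiation-favouring miRNAs miR-17 has no probe of its own. The lists share members, among them miR-21, miR-221 and miR-222, so their counts are not independent. Same-numbered samples were checked for pairing by correlating their deviations from group means. Every pair was over 0.1 in cultured cells (0.50 to 0.88) and in HFD aorta with HFD fat (0.21 to 0.33). Alternatives were another pseudocount (16), filter, detection limit or scaling, values set to the limit, 1 fit of all samples, a replicate block, leaving out each sample and, chosen after seeing the data, undoing the factor.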

Additional observations from a re-analysis of the deposited data

Results flagged for a closer look

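The LPS effect passed a test of its difference between exosomes and cultured adipocytes, in a fit that understates the scatter of exosomes. It was larger in exosomes by 5.14 on the log2 scale for miR-148a and by 3.70 for miR-152 (limma, adjusted p = 0.012 each). Both miRNAs were below the detection limit in all 3 PBS exosome samples, so the size depends on how such values are treated, and so does the call for miR-152. With values under the limit set to the limit the miR-152 difference was 1.40 (adjusted p = 0.15), and its call was lost in 6 of 10 other settings. No sample of a group of 4 or 5 stood apart from the others of its group in either miRNA by Dixon's test.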

How the results depend on the processing

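Of the LPS effect in exosomes, miR-148a had log2 differences of 5.634 with no filter (adjusted p = 0.38), 1.966 centred on the median, 3.392 scaled to the top 100 and 3.358 to the total, and 5.634 with the replicate block (adjusted p = 0.055), none past the threshold; miR-152 had 4.074, 0.4062, 1.858, 1.829 and 4.074 (block, adjusted p = 0.076). Leaving out 1 sample gave 4.72 to 6.409 and 3.278 to 4.516. The excess of the LPS effect in exosomes over cells missed the threshold for miR-152 at 3.702 (no filter), 1.188 (median), 1.945 (top 100), 1.833 (total), 1.405 (values under the limit set to it) and 3.149 (factor undone), while miR-148a stayed past it in all 10 settings, with a highest adjusted p of 0.0496 (no filter). All these fits shared 1 spread over exosomes and cells, which makes their adjusted p too favourable. PBS exosomes against cells missed the threshold for miR-152 at -0.4475 (median), -0.5036 (top 100) and -1.012 (total). LPS exosomes against cells turned positive, at 0.8365, 1.55 and 0.9262 for miR-148a and 0.7402, 1.441 and 0.8212 for miR-152 (median, top 100 and total), with an adjusted p of 0.044 for miR-148a at the top 100; miR-148a was at -2.0 with no filter (adjusted p = 0.1) and at -2.504 to -1.224 without 1 sample, its call lost without LPS cell replicate 2 or 3 or LPS exosome replicate 3. In cells miR-152 was at -0.01458 (top 100). With diet, miR-148a was at -0.08253 (top 100) and -0.07944 (total) in fat and -0.04395 (total) in aorta, and miR-152 in fat at 0.8384 with the factor undone. The diet effect in aorta less fat ran from -0.1454 to 0.2085 for miR-148a and -0.3236 to 0.08434 for miR-152 without 1 sample, and miR-152 was at 0.02212 centred. Aorta against fat gave 0.01104 (median) and 0.2297 (top 100) on chow and 0.2135 and 0.2575 on HFD for miR-148a, and for miR-152 1.295, 1.513 and 0.04442 (total) on chow and 1.318, 1.361 and -0.1004 on HFD. On HFD miR-152 also missed the threshold at -0.7066 (no filter, and all samples in 1 fit), -0.5227 (replicate block) and -0.7903 (factor undone). Without 1 sample miR-152 was at -0.8554 to -0.4475, its call lost in 5 of 8. Fat against cells was at -0.1647 (median), -1.418 (top 100) and 0.08111 (total) for miR-148a and -0.657, -1.906 and -0.4089 for miR-152. The cause was not tested in these cases. The replicate block changed no other call.

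The number of miRNAs past the threshold moved for LPS exosomes, where 8 became 0 (no filter, median, replicate block), 1 (total), 2 (top 100), 5 (doubled limit) or 17 (all samples in 1 fit), 23 without LPS exosome replicate 3 and 0 without any other sample. In cells 2 became 8 (replicate block), 5 (median), 1 (doubled limit) or up to 4 (without LPS replicate 1). For the excess in exosomes 17 became 5 (no filter), 6 (values set to the limit), 9 (factor undone), 10 (pseudocount of 16), 29 (total), 32 (all samples), 35 (median), 43 without LPS exosome replicate 3, and 9 to 11 without PBS cell replicate 2 or 4 or any LPS cell sample. In fat 24 became 8 (replicate block), 10 (all samples), 13 (no filter) or 52 (factor undone), 48 without HFD replicate 1, and 8 to 14 without chow replicate 1, 3 or 4 or HFD replicate 2, 4 or 5. With the top 100, 59 passed between PBS exosomes and cells and 55 between LPS exosomes and cells. For the diet effect in aorta less fat 3 became 5 (no filter), 7 without chow aorta replicate 1 and 5 without replicate 2, and in aorta 0 became 1 without chow replicate 1.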
